A study of Mus musculus with 82 samples.

Results

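The genes described here are 10 genes of the smooth muscle contractile apparatus, Myh11, Myl9, Actg2, Acta2, Tagln, Cnn1, Smtn, Des, Pcp4 and Sh3bgr, of 12393 genes that had a probe set of their own on the array. They are named by gene symbol and no measured value enters the rule, but the set was proposed with earlier results of these data known. They were covered by 13 probe sets. For a gene with several probe sets the brightest on average was used, and these 10 probe sets were also the ones that passed the filter on low values. The second probe sets of Myh11, Acta2 and Des did not pass it, and their values are given apart. The filter kept a probe set that exceeded its column's median in 3 or more specimen averages, and it left 13129 probe sets that were tested.

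RNA was measured on oligonucleotide arrays in peritoneal oil granulomata of BALB/c.iMycEμ mice. These mice carry a Myc gene inserted into the immunoglobulin heavy chain locus, and all of them, in every group, had received an intraperitoneal injection of 0.5 ml of pristane oil at an age of at least 8 weeks. Cells positive for methyl green pyronin, a stain for RNA-rich plasma cells, were laser-captured from frozen sections (captured cells), and undissected sections of the granulomata were the comparison tissue (whole granuloma). There was no group of untreated mice or of mice without the transgene. Study 2 had captured cells and whole granuloma of days 7, 17, 33, 49 and 105 after the injection, each from 3 specimens, on 30 and 15 arrays. Study 1 had captured cells of days 7, 17, 33, 46 and 104 from 4, 4, 3, 3 and 1 specimens on 25 arrays. Its whole granuloma of days 7, 17, 33 and 104 came from 2, 2, 3 and 1 specimens on 12 arrays. A specimen is a code in an array's title, and arrays of the same code, tissue type and day were averaged. An array of captured cells of day 33 of study 1 had no code and was counted as a specimen of its own. Code 003 of day 7 of study 1 was counted apart from code 3. The labels do not say that each code is a separate mouse, so the p-values measure the spread between specimen codes.

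Smooth muscle cells contract when myosin II filaments slide along filaments of smooth muscle actin. Calcium entry activates calmodulin and the myosin light chain kinase, which phosphorylates the regulatory light chain. Calponin, transgelin and smoothelin bind the actin filaments, and desmin links the contractile units into the cell's intermediate filament network. In the peritoneum these cells form the walls of blood vessels and the muscle layers of the gut, and Acta2 is also made by activated fibroblasts (myofibroblasts). Many genes of the set are known targets of the serum response factor, which binds a short A- and T-rich element flanked by cytosines and guanines, the CArG box, together with its coactivator myocardin.

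The upstream sequences of 3 members are shown because they hold this element or a near match, and because the members rose and fell together across specimens, as described below. RefSeq promoter sequences of the GRCm38.p6 build were matched to 6 of the 10 members (Des, Myl9, Cnn1, Smtn, Pcp4 and Acta2). Each line gives the 250 bases before the annotated start, 5′ to 3′, with CArG boxes and matches with 1 other base in capitals. Myl9 lies on the plus strand of chromosome 2 (chr2:156775214-156775463), Pcp4 on the plus strand of chromosome 16 (chr16:96467356-96467605) and Acta2 on the minus strand of chromosome 19 (chr19:34255374-34255623).
Myl9: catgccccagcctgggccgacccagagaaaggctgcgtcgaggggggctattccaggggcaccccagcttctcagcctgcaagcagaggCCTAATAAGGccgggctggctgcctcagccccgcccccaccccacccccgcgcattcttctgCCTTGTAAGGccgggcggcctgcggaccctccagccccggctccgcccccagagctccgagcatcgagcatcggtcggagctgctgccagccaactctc
Pcp4: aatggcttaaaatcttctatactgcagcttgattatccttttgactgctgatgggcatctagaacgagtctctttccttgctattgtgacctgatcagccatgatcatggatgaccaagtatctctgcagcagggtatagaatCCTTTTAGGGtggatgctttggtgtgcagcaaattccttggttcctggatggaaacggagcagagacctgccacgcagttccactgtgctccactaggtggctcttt
Acta2: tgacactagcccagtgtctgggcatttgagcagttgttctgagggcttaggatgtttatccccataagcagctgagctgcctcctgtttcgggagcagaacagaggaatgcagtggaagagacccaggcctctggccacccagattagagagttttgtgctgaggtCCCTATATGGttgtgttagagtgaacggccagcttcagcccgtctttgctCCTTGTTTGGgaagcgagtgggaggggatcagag
An exact CArG box was found in 1 of the 6 windows (Myl9, 161 to 152 bases before the start), against 1.629% of 32851 promoter windows. For these counts a window is the whole promoter sequence as given, with any bases past the start that are not printed above. A match with 1 other base was found in 3 of the 6, against 8.499% of the windows. Both strands were searched, and the 2 patterns do not count the same letters. The Acta2 matches lay 84 to 75 and 34 to 25 bases before the start, the second Myl9 match 99 to 90 and the Pcp4 match 107 to 98. The letters TATAAA were in none of the 6 windows on either strand, against 13.616% of all windows. A match is a description of the letters, and no binding was measured.

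The deposited values are log2 values, and their level differed by tissue type. Column medians were 5.31 to 5.64 in captured cells and 7.11 to 7.33 in whole granuloma of study 2, and 4.97 to 5.11 in captured cells and 5.73 to 5.82 in whole granuloma of study 1. Tissue types were therefore compared on values quantile-normalized over all arrays, and days within a tissue type on the values as deposited. Where a change between days was compared between tissue types or between studies, the values as deposited were also used. The 3′ minus 5′ difference of the Gapdh and beta-actin control probe sets, which grows with RNA fragmentation and with rounds of amplification, was 0.463 to 5.31 in captured cells and 1.39 to 1.84 in whole granuloma of study 2, and 3.03 to 5.73 and 2.65 to 3.74 in captured cells and whole granuloma of study 1. It thus moved with the tissue type, and a fit with it as a covariate is given with the results.

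3 arrays of captured cells of study 2 stood apart. The second array of specimen 2 of day 49 had a median correlation of only 0.137 with the other captured arrays of the study, where the median over the arrays was 0.943, and its 3′ minus 5′ difference was the 0.463 above. The first array of specimen 1 of day 7 had a median correlation of 0.777. The second array of specimen 2 of day 33 was not unlike the others (0.917), but its member genes were high. Myh11 was at 7.05 there, against 3.69 on the other array of the same code, and Actg2 was at 8.79 against 3.65. All 10 members were higher on it than on that other array. The title of this array carries another letter after its number than that of the other array, and whether the 2 share a specimen is not stated. Results that rest on these arrays are given with and without them. The day 33 array was picked for its high member values. Leaving it out therefore lowers the members' values and spread in captured cells of study 2 by that choice. Among whole granuloma arrays, the lowest median correlation was 0.872 in study 2 and 0.924 in study 1.

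Captured cells were first set against whole granuloma. All 15 captured specimen codes of study 2 also had whole granuloma arrays, and 5 of the 15 of study 1 did. All 10 members were lower in captured cells of study 2 (limma, adjusted p = 0.000421 or less), and all 10 were lower in captured cells of study 1 (adjusted p = 0.034 or less). Over all tested probe sets, 36.1% were lower in study 2 and 29.7% in study 1, so a call in this direction was common. Myh11, Cnn1 and Pcp4 passed the filter on low values through whole granuloma, where they were high. Their highest captured percentiles were 46.5, 47.9 and 36.28 in study 2, and 43.72, 36.93 and 30.08 in study 1. Actg2, Smtn and Sh3bgr also stayed below the middle of the array in captured cells of study 1. For such members the filter itself favours a lower value in captured cells. The median difference of the members was -3.31 on the log2 scale in study 2, where the median of all tested probe sets was -0.02. In study 1 it was -3.35, against 0.05 over all tested probe sets. Because the RNA is from bulk tissue and pooled captured cells, fewer smooth muscle cells and less RNA per cell cannot be told apart.

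Both myosin genes of the set were lower. Myh11, the smooth muscle myosin heavy chain, had quantile-normalized log2 values of 3.03, 3.68 and 5.58 (lowest, median and highest of 15 specimens) in captured cells of study 2, against 4.19, 7.75 and 11.61 in whole granuloma. In study 1 it had 3.71, 4.26 and 5.20 in captured cells (15 specimens), against 8.00, 9.08 and 10.96 in whole granuloma (8 specimens). The ranges overlapped in study 2, through whole granuloma specimens that were as low as captured cells, and not in study 1. The difference was -4.36 (SE 0.38) in study 2 and -5.16 (SE 0.54) in study 1. Captured cells were lower in 15 of 15 specimens of study 2 with both tissue types and in 5 of 5 of study 1. Myl9, the regulatory light chain, differed by -3.37 (SE 0.43) and -4.74 (SE 0.61), again in 15 of 15 and 5 of 5 specimens.

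Both smooth muscle actins were lower in captured cells. Actg2, the gamma actin typical of gut muscle, had 3.99, 4.39 and 6.38 in captured cells of study 2 against 3.89, 9.20 and 12.84 in whole granuloma, a difference of -4.43 (SE 0.51). In study 1 it had 3.16, 3.46 and 3.99 in captured cells against 6.58, 9.13 and 11.78 in whole granuloma, a difference of -5.86 (SE 0.72). Its captured level in study 1 lay at the median at the 9.19th percentile of its own array, near the floor of the scale. In captured cells of study 2 the median percentile was 12.65 for Cnn1, 15.01 for Myh11, 19.28 for Pcp4 and 24.13 for Sh3bgr. Near the floor a difference is a lower bound on its size, so the members are not ranked by it. Acta2, the alpha actin of vascular muscle, had 6.44, 9.46 and 10.61 in captured cells of study 2 against 8.09, 11.54 and 13.64 in whole granuloma. Its signal stood at the 90.3rd percentile of the array at the median in captured cells and the 97.9th in whole granuloma. Its difference was -2.32 (SE 0.31) in study 2 and -3.08 (SE 0.44) in study 1. That lowest captured value of Acta2 in study 2, 6.44, was that of specimen 2 of day 49. The Acta2 probe set carries the suffix _s_at, which Affymetrix gives to probe sets that may match transcripts of more than 1 gene, and the share of other actins in its signal was not tested.

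Tagln, which codes for transgelin, had 5.18, 6.28 and 8.02 in captured cells of study 2 against 6.21, 9.70 and 12.69 in whole granuloma, a difference of -3.63 (SE 0.31) in study 2 and -4.48 (SE 0.44) in study 1. Cnn1, the calponin of smooth muscle, differed by -3.91 (SE 0.44) and -3.55 (SE 0.63). Smtn, smoothelin, differed by -1.64 (SE 0.29) in study 2 and by -1.002 (SE 0.41, adjusted p = 0.034) in study 1. It was the only member whose ranges overlapped in study 1. Des, desmin, differed by -1.29 (SE 0.32) in study 2, where captured cells were lower in 10 of 15 specimens, and by -1.76 (SE 0.45) in study 1, where they were lower in 5 of 5. Its median in captured cells of study 2 was 6.61, at the 61.8th percentile of the array.

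The last 2 members are not filament proteins. Pcp4, a small calmodulin-binding protein also found in neurons, had 3.69, 3.85 and 4.96 in captured cells of study 2 against 4.67, 6.47 and 10.75 in whole granuloma. The differences were -3.25 (SE 0.37) in study 2 and -3.15 (SE 0.52) in study 1. Sh3bgr, a small protein with a glutamic acid-rich end that is named for binding SH3 domains, had 3.75, 4.05 and 7.75 in captured cells of study 2 against 3.92, 5.37 and 10.46 in whole granuloma. The highest captured value, 7.75, was again specimen 2 of day 49, and the difference was -2.05 (SE 0.38) in study 2 and -2.54 (SE 0.54) in study 1. Sh3bgr and Pcp4 both lie on mouse chromosome 16, with 3 protein-coding genes between them. Captured cells were lower in 15 of 15 specimens for Pcp4 and in 13 of 15 for Sh3bgr.

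In study 2 the second probe sets of Acta2 and Des did not follow the first ones. That of Myh11 was also lower in captured cells there, in 15 of 15 specimens, but by less than the first. In study 1 that of Acta2 was lower by less than the first, and those of Myh11 and Des differed little. All 3 lay low on the arrays, at median percentiles between 11.67 (Acta2 in whole granuloma of study 2) and 32.98 (Myh11 in whole granuloma of study 2), and they were not tested. For Myh11 the second probe set had a captured minus whole difference of -1.03 (SE 0.12) in study 2 and -0.09 (SE 0.17) in study 1. For Acta2 it had 0.17 (SE 0.06) and -0.36 (SE 0.08), and for Des 0.22 (SE 0.12) and -0.11 (SE 0.16). Between day 105 and day 7 of whole granuloma of study 2, described below, the second probe sets differed by -1.49 (SE 0.33) for Myh11, -0.03 (SE 0.16) for Acta2 and 0.09 (SE 0.26) for Des. The size of the differences of these 3 genes thus rests on 1 probe set each, and for Acta2 and Des in study 2 so does the direction.

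**Figure D1:**
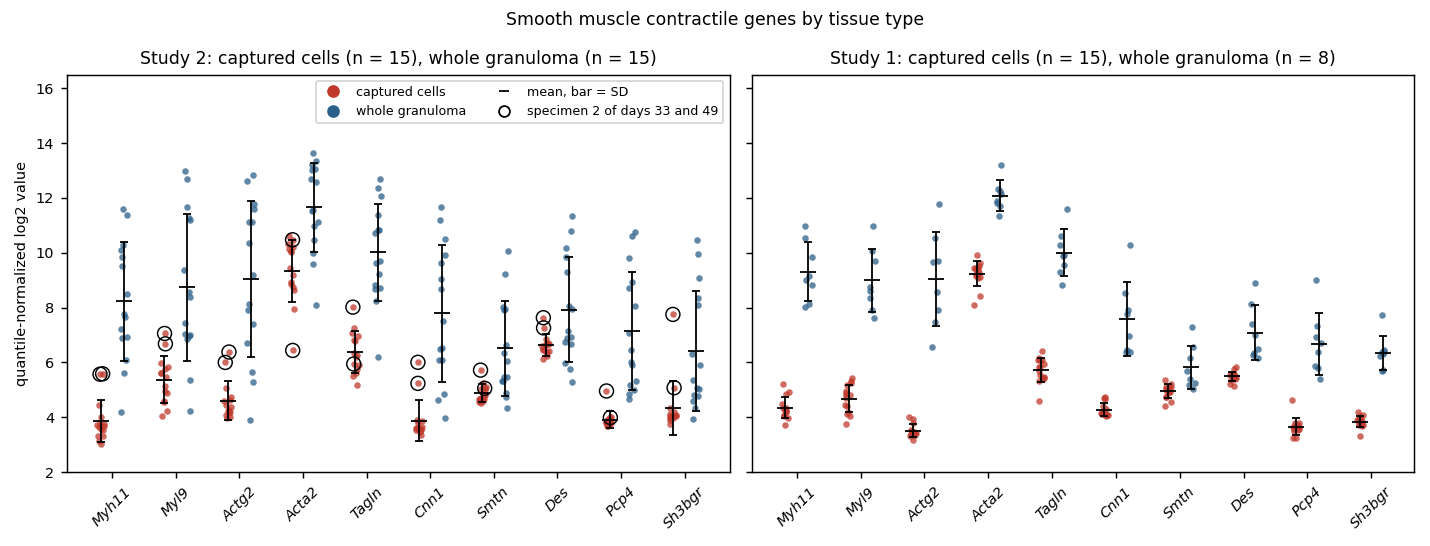
Quantile-normalized log2 values of the 10 members in captured cells (left of each pair) and whole granuloma (right) of study 2 and study 1. Points are specimens, horizontal marks are means and bars are SD, and rings mark the 2 captured specimens of days 33 and 49 that hold an array standing apart. Whole granuloma of study 2 spreads widely and reaches down into the captured range for every member, while in study 1 only Smtn overlaps.

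In study 1, 9 of the 10 members had captured values that were all below the lowest whole granuloma value, against 9.64% of all tested probe sets. In study 2 no member did, against 3.09%. Without only the 2 arrays least like the others, 0 members did so in study 2, against 4.14% of the tested probe sets. Without the 3 arrays that stand apart, 2 members (Cnn1 and Pcp4) did so, against 4.27%. The third of these arrays was picked for its high member values, so this gain is no support. Without these arrays the differences of study 2 ran from -1.43 (SE 0.31) for Des to -4.79 (SE 0.49) for Actg2, and all 10 members were again lower. Sh3bgr differed by -2.33 (SE 0.33) without them. With the 3′ minus 5′ difference as a covariate, 7 of 10 were still called lower in study 2, against 25% of the tested probe sets, and the 3 that were not were Smtn (adjusted p = 0.0583), Des (adjusted p = 0.385) and Sh3bgr (adjusted p = 0.6). In study 1, 9 of 10 were called in that fit, against 27.1%.

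By day, the members called lower in captured cells of study 2 were 10 on day 7, 6 on day 17, 7 on day 33, 8 on day 49 and 2 on day 105, against 21.2%, 19.6%, 22.5%, 24.8% and 15.2% of all tested probe sets. Without the 3 arrays that stand apart the counts were 10 on day 7, 8 on day 33 and 9 on day 49, against 24.1%, 27.5% and 20.4%. The 2 on day 105 were Myh11 (-2.65, SE 0.85, limma adjusted p = 0.0168) and Tagln (-2.30, SE 0.70, adjusted p = 0.0112). The median difference of the members was -5.71 on day 7 and -1.63 on day 105. In study 1, 7, 9, 8 and 5 members were called lower on days 7, 17, 33 and 104, against 19.5%, 16.1%, 19.5% and 6.65%. Day 104 of study 1 rests on 1 specimen of each tissue type, and its spread is that of the whole fit. The difference between the tissue types was then compared between the studies over the shared days. None of the 10 members passed (limma, 0 of 10 also at an unadjusted p under 0.05), although 47.2% of all tested probe sets did, and the differences between the studies ranged from -0.58 (SE 0.80) for Cnn1 to 1.38 (SE 0.78) for Myl9. Their median was 0.53, and it was -0.22 without days 104 and 105, where again none passed. On values as deposited 3 members passed, and on median-centred values 1 did.

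Of 32 other genes of contraction 27 were on the array and 21 were tested, and 17 of these were lower and 2 higher in captured cells of study 2. In study 1, 15 were lower and 1 was higher. Their median difference was -0.78 in study 2 and -1.32 in study 1. Mylk, the kinase that phosphorylates the light chain, differed by -3.62 (SE 0.32) and -4.09 (SE 0.45), and the tropomyosin gene Tpm1 by -3.14 (SE 0.25) and -2.31 (SE 0.35). The others with the largest differences were Ppp1r14a, the inhibitor of myosin phosphatase (-2.32, SE 0.28 in study 2), Flna, filamin A (-2.25, SE 0.22 in study 2 and -2.29, SE 0.31 in study 1), and the tropomyosin gene Tpm2 (-2.86, SE 0.49 in study 1). Kcnma1, the large-conductance potassium channel, was higher in captured cells of both studies (0.56, SE 0.08 in study 2 and 1.05, SE 0.11 in study 1), and the kinase gene Rock1 was higher in study 2 (0.98, SE 0.10).

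Markers of other cell types also differed. In study 2, captured cells were lower in 7 of 7 tested adipocyte genes (Adipoq at -5.15, SE 0.56 and Cidec at -4.61, SE 0.37), in 5 of 6 mesothelial genes (Krt19 at -2.93, SE 0.25 and Msln at -2.38, SE 0.20), in 6 of 8 endothelial genes (Vwf at -1.52, SE 0.31 and Cldn5 at -1.42, SE 0.21) and in 6 of 10 fibroblast genes (Sparc at -1.61, SE 0.22 and Col1a2 at -1.39, SE 0.19), while 1 fibroblast gene was higher. They were lower in 5 of 6 macrophage genes (Arg1 at -2.17, SE 0.34 and Cd68 at -1.84, SE 0.23). Pericyte genes split, with 2 of 5 lower (Kcnj8 at -1.29, SE 0.19 and Rgs5 at -0.78, SE 0.28) and 2 higher (Notch3 at 1.44, SE 0.14 and Pdgfrb at 1.01, SE 0.21). Of the plasma cell genes 5 of 7 were higher in captured cells of study 2 (Slamf7 at 1.46, SE 0.14 and Tnfrsf17 at 1.34, SE 0.23), and 2 of 7 were in study 1. The median difference of this list was only 0.62 in study 2 and 0.15 in study 1. In either direction, 72.8% and 65.2% of all tested probe sets were under an unadjusted p of 0.05 in limma. The share of all called higher is not given, so these counts are not read as enrichment. Of the 4 tested striated muscle genes 2 were lower (Tnnt2 at -2.27, SE 0.34) and 1 higher, of 4 enteric genes 3 were lower (Kit at -1.43, SE 0.12) and 1 higher, both tested gut epithelium genes were lower (Epcam at -1.24, SE 0.24), and 1 of 7 pancreatic genes was higher (Prss2 at 0.93, SE 0.39). In study 1, captured cells were lower in 7 of 7 adipocyte, 5 of 6 mesothelial, 5 of 8 endothelial, 7 of 10 fibroblast, 6 of 6 macrophage, 2 of 5 pericyte and 2 of 4 striated muscle genes, with none higher. The enteric genes had 2 lower and 1 higher of 4 there. The pancreatic and gut lists went another way than in study 2, with 6 of 7 pancreatic genes lower in study 1 (Cpb1 at -2.90, SE 0.70 and Cpa1 at -2.65, SE 0.60) and the gut genes split (Epcam at 1.504, SE 0.33 and Lgals4 at -0.30, SE 0.13). The part of these cell types in the members' differences was not tested.

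Within whole granuloma of study 2 the members were lower at day 105 than at day 7. Over days 7, 17, 33, 49 and 105 all 10 passed the moderated F test of limma in the fit that shares 1 estimate of the spread over all groups (adjusted p from 0.00093 for Myl9 to 0.0174 for Acta2), against 23.7% of the tested probe sets. Fitted alone, with the spread of whole granuloma of study 2 only, none of the 10 passed (adjusted p from 0.098 for Tagln to 0.198 for Actg2), against 7.57%. In that fit 6 of 10 were under an unadjusted p of 0.05, against 32.2%, and 7 of 10 were called lower at day 105 than at day 7, against 7.05%. At day 105 all 10 were lower than at day 7, with differences from -2.89 to -5.47 on the deposited log2 scale and a median of -4.32, where 11.4% of the tested probe sets were called lower and the median of all was 0.01. The means of Myh11 by day were high at day 7 and low at day 105. Of the days between, 1 specimen of day 49 was as high as those of day 7, and 1 of day 17 lay just below them.

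Myh11 had deposited log2 values of 12.72, 11.43 and 11.59 in the 3 specimens of day 7, 8.78, 11.14 and 7.62 at day 17, 10.90, 9.25 and 9.62 at day 33, 12.53, 9.14 and 7.22 at day 49, and 8.45, 5.52 and 8.30 at day 105. The day 105 values lay all below the day 7 values, and the difference was -4.49 (limma, SE 0.85, adjusted p = 0.000236) in the fit over all groups. With the spread of whole granuloma of study 2 only, its SE was 1.17 and its adjusted p 0.0271 in limma. Unless said otherwise, the SEs of day differences below are those of the fit over all groups. Actg2 had 13.51, 12.29 and 12.84 at day 7, 8.96, 12.70 and 7.17 at day 17, 11.65, 10.61 and 12.03 at day 33, 13.75, 8.31 and 6.85 at day 49, and 9.41, 5.10 and 9.49 at day 105. Its day 33 specimens were all below its day 7 specimens, while 1 specimen of day 17 and 1 of day 49 were not. Sh3bgr had 11.31, 9.63 and 10.49 at day 7, 6.62, 9.77 and 6.06 at day 17, 7.89, 6.94 and 7.29 at day 33, 11.72, 6.58 and 5.65 at day 49, and 6.27, 5.16 and 6.29 at day 105. In all 3 genes specimen 1 of day 49 stood with the day 7 specimens. Specimen 2 of day 17 did so in Actg2 and Sh3bgr, and in Myh11 it lay just below them.

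Across the 10 members the same specimens were at the top and at the bottom. Specimen 1 of day 49 and specimen 1 of day 7 were the 2 highest of the 15 for every member. The day 7 specimens and specimens 2 of day 17 and 1 of day 49 took the first 5 places for every member. Specimen 2 of day 105 ranked between the 13th and 15th place, with a median rank of 15, and there the members stood at the 28.8th percentile of the array at the median, against the 97.6th in specimen 1 of day 7. The 3′ minus 5′ difference of these arrays was 1.39 to 1.65 at day 105 and 1.69 to 1.76 at day 7.

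Myl9 had the largest difference between day 105 and day 7, at 7.45 ± 1.66 and 12.92 ± 0.58 (SD, n = 3 each, limma difference -5.47, SE 0.94, or SE 1.39 fitted alone). Acta2 had the smallest, at 11.11 ± 1.33 at day 105 and 14.01 ± 0.24 at day 7 (difference -2.89, SE 0.68, or SE 0.77 fitted alone), and it started near the top of the scale. Cnn1 was at 7.07 ± 1.60 at day 105 and 11.72 ± 0.70 at day 7, Tagln at 9.33 ± 1.43 and 12.91 ± 0.75, and Smtn at 6.50 ± 0.69 and 9.85 ± 0.67. Des was at 7.47 ± 0.74 at day 105 and 11.40 ± 0.66 at day 7, and Pcp4 at 6.92 ± 0.50 and 11.06 ± 0.84. None of the 10 members had overlapping values between the 2 days, and 19.2% of all tested probe sets had all 3 day 105 values below the 3 day 7 values. Against day 7, 4 members were called lower at day 33 (Myl9, Smtn, Des and Sh3bgr, 4.2% of all tested probe sets), none at day 17 (0% of all) and none at day 49 (0.0229% of all), although 10 and 9 members were below an unadjusted p of 0.05 in limma on those 2 days, against 4.46% and 4.33% of all. The size on these days was a median of -2.80 at day 17 and -2.35 at day 49.

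Spread within a day was larger for the members in whole granuloma than elsewhere, with a median SD of 1.74 in study 2, where the median of all tested probe sets was 0.355, and of 0.636 in captured cells. Without specimen 2 of day 105, 6 of 10 passed the F test in the fit over all groups, against 10.8% of the tested probe sets, and 8 of 10 were called lower at day 105, against 6.13%.

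**Figure D2:**
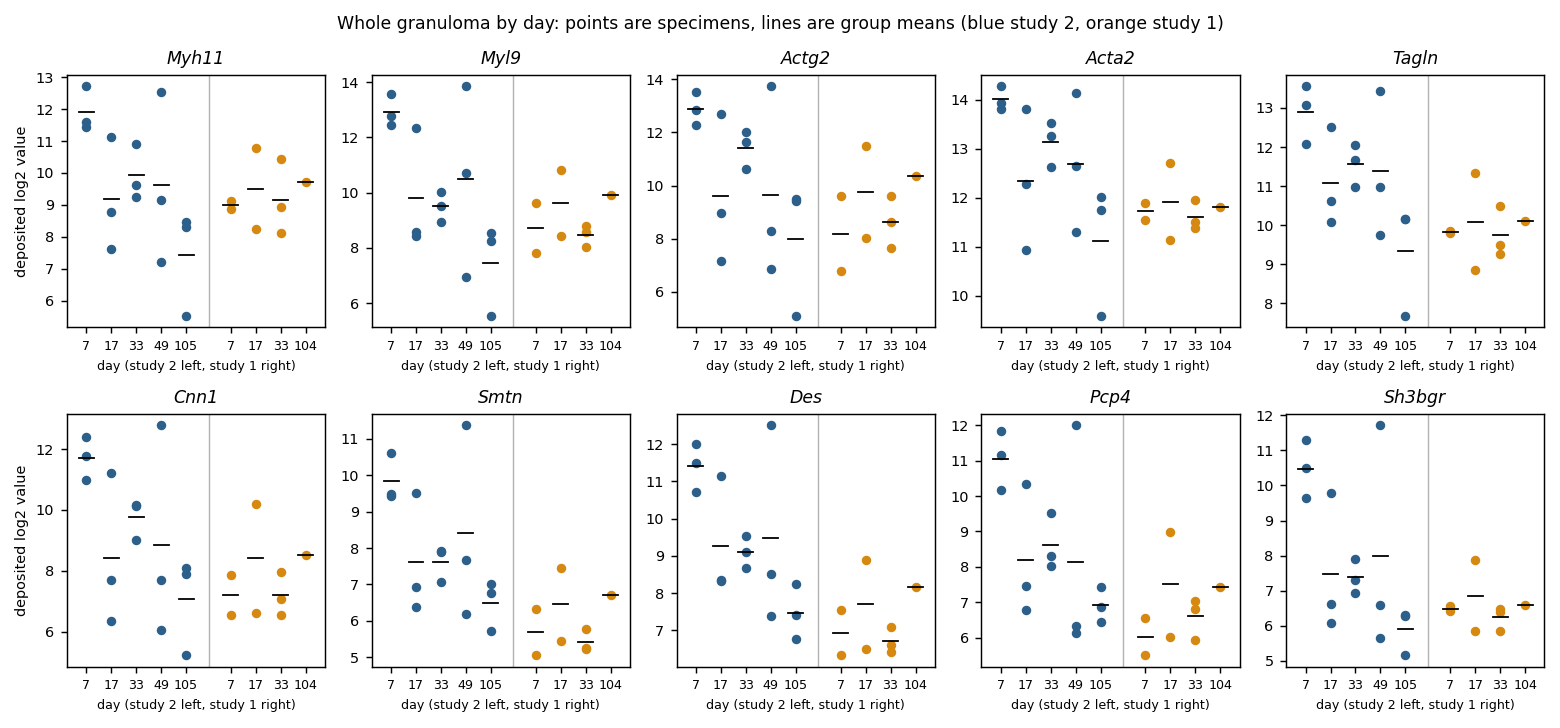
Deposited log2 values of the 10 members in whole granuloma by day, study 2 left and study 1 right of the line in each panel, with vertical scales that differ between genes. Points are specimens and short lines are group means. In study 2 the 3 specimens of day 7 lie high and those of day 105 low, with 1 high specimen at day 17 and 1 at day 49, while in study 1 the highest specimen is 1 of day 17.

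Other lists moved at day 105 in whole granuloma of study 2 as well, where 11.4% of all tested probe sets were called lower. Of the 21 other contraction genes 16 were lower, led by Tpm2 (-3.98, SE 0.73), Ppp1r14a (-3.75, SE 0.64), Myocd, the coactivator myocardin (-3.10, SE 0.57) and Tgfb1i1, a focal adhesion adaptor (-2.86, SE 0.49). Of marker lists, 4 of 5 pericyte genes were lower (Rgs5 at -2.50, SE 0.65 and Kcnj8 at -1.89, SE 0.41), as were 4 of 6 mesothelial (Krt8 at -2.71, SE 0.63 and Krt19 at -2.13, SE 0.56), 5 of 7 adipocyte (Thrsp at -4.53, SE 1.16 and Fabp4 at -3.51, SE 0.58), 3 of 4 striated muscle (Tnnt2 at -4.26, SE 0.87 and Ckm at -2.33, SE 0.69) and 4 of 10 fibroblast genes (Postn at -2.86, SE 0.37 and Fn1 at -1.54, SE 0.56). Endothelial genes were lower in 2 of 8 (Esam at -1.40, SE 0.38 and Emcn at -1.14, SE 0.35), macrophage genes in 2 of 6 (Arg1 at -3.32, SE 0.83 and Cd14 at -2.02, SE 0.51) and enteric genes in 1 of 4 (Vip at -3.06, SE 0.66), with 1 enteric gene higher (Sox10 at 0.54, SE 0.19). Of the gut epithelium genes 1 of 2 was higher (Epcam at 1.53, SE 0.53), and 0 of 7 pancreatic genes passed. Plasma cell genes were higher in 3 of 7 (Prdm1 at 2.10, SE 0.46 and Irf4 at 1.56, SE 0.46), with a median of 0.77 over the list. In either direction, 31% of all tested probe sets were under an unadjusted p of 0.05 in limma. The summed level of a list (log2 of the summed linear values) overlapped between day 105 and day 7 only for endothelial, gut epithelium and pancreatic genes. It was lower at day 105 without overlap for the members (10.47 to 12.85, against 15.28 to 16.28) and the other contraction genes. So it was for adipocyte (10.42 to 13.34, against 14.70 to 15.49), mesothelial, pericyte, macrophage, striated muscle, fibroblast and enteric genes. Plasma cell genes were higher without overlap (14.75 to 15.22, against 14.40 to 14.46). Such a split was thus common among the lists, and it sets neither the members nor a cell type apart. Of single tested probe sets, 19.2% had all day 105 values below those of day 7. The part of these cells in the members' course was not tested.

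In study 1 no member passed the F test over days 7, 17, 33 and 104 in whole granuloma (limma, 0 of 10 at an unadjusted p under 0.05, and 0.0229% of all tested probe sets after adjustment). Myh11 had 8.86 and 9.11 at day 7, 8.24 and 10.77 at day 17, 8.11, 10.45 and 8.92 at day 33 and 9.70 at day 104. Actg2 had 6.78 and 9.62 at day 7, 8.04 and 11.49 at day 17, 7.64, 8.64 and 9.59 at day 33 and 10.35 at day 104. The highest of the 8 specimens was, for every member, the one with code 12 of day 17. The day 104 specimen held a median rank of 2 of 8. The members' median change at day 104 against day 7 was 1.10, where study 2 had -4.32 at day 105. The difference between the studies in this change was tested after these values were seen. No member passed (limma adjusted p from 0.16 to 0.375), although all 10 were below an unadjusted p of 0.05, as were 9.91% of the tested probe sets. After adjustment 0.0381% of all passed. Study 1 has 1 specimen at day 104.

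In captured cells no member passed the F test over the days in either study (limma, 0 of 10 in each, against 14.6% of all tested probe sets in study 2 and 0.594% in study 1, with 1 and 0 members at an unadjusted p under 0.05). At day 105 the captured cells of study 2 differed from day 7 by a median of -0.16 over the members, with 0 called, against 7.52% of the tested probe sets. Without the 3 arrays that stand apart no member passed the F test in study 2 (12.3% of all), and 1 (Acta2) was called between day 105 and day 7 (9.09% of all). Acta2 was at 8.30 ± 0.46 at day 105 and 9.78 ± 0.87 at day 7 (SD, n = 3 each, all arrays). The change at day 105 was then set against that of whole granuloma in the same study, a comparison added after the values were seen. On the values as deposited, the captured minus whole difference passed for 7 of 10 members, all positive (median over the 10 members 4.23). In that direction 2.7% of the tested probe sets passed. Without the 3 arrays that stand apart 9 of 10 passed, against 4.99%, but 1 of these arrays was picked for its high member values. Several members lay near the floor of the array in captured cells, at the percentiles given above, where a lower level at day 105 could hardly be measured. Acta2, at the 90.3rd percentile, differed between the days by -1.48 (SE 0.68) in captured cells and -2.89 (SE 0.68) in whole granuloma, and the difference between these did not pass. Des and Myl9, at median percentiles of 61.84 and 46.97 in captured cells, did pass, and Tagln, at 57.69, did not. The part of the floor in this result was not tested. Among those that passed, the captured minus whole differences were 4.76 (SE 1.25) for Myl9, 4.69 (SE 1.10) for Sh3bgr and 4.47 (SE 1.33) for Cnn1. The 3 that did not pass in limma were Actg2 (adjusted p = 0.077), Tagln (adjusted p = 0.0639) and Acta2 (adjusted p = 0.407). The number that passed was 0 without specimen 1 of day 7 and 0 without specimen 2 of day 105. It was 3 without specimen 2 of day 7, 2 without specimen 3 of day 105 and 3 without the replicate block.

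Across specimens of whole granuloma the members rose and fell together. In study 2 all 45 pairs of members correlated with Pearson's r from 0.829 to 0.988 over 15 specimens, with a median of 0.949, and Spearman's rho had a median of 0.957. All 45 pairs were under 0.05 after Benjamini-Hochberg adjustment over the 45 pairs for both measures (permutation test with 100000 permutations, two-sided). The tightest pair was Des and Sh3bgr (r = 0.988, rho = 0.968), with an adjusted permutation p of 1e-05, the smallest these permutations can give. The loosest was Acta2 and Pcp4 (r = 0.829, rho = 0.839, adjusted permutation p = 0.0001). With each day's mean subtracted, so that only specimens within a day were compared, the median r was 0.938 and the lowest 0.731. Without the 2 specimens farthest from the median of the first gene of the pair it was 0.94.

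**Figure D3:**
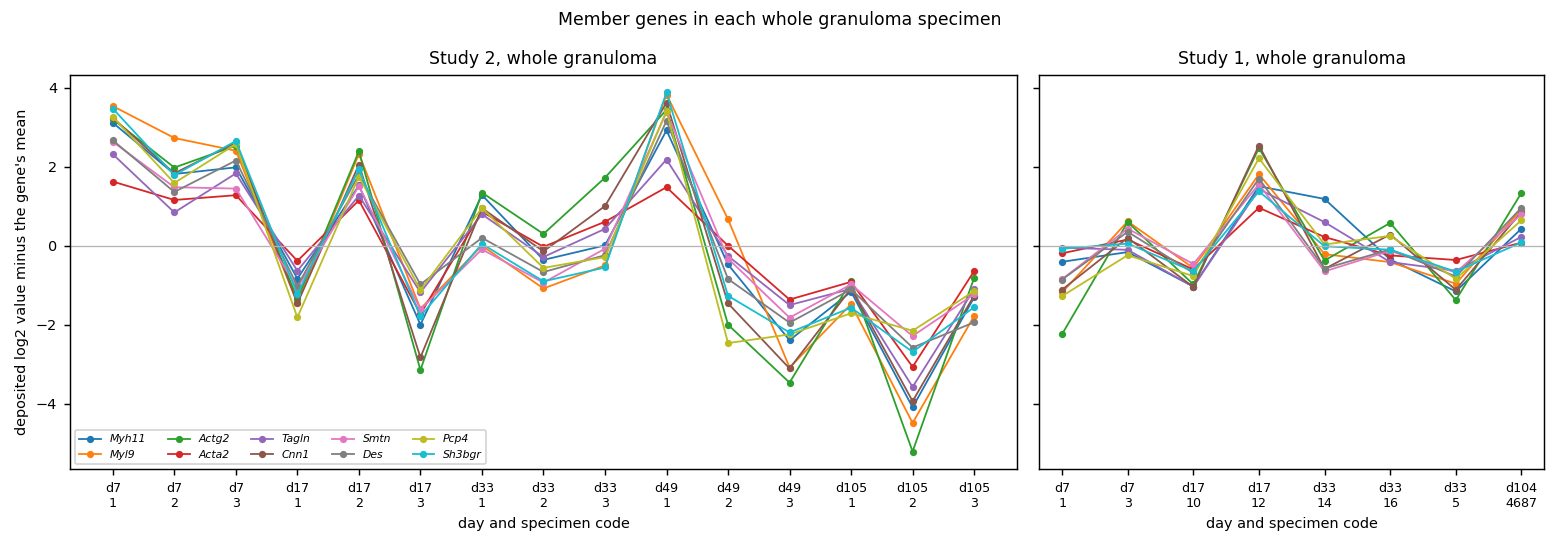
Deposited log2 value of each member in each whole granuloma specimen, minus the member's own mean over the specimens of the study, with specimens ordered by day and code. Lines join the values of 1 gene and carry no time course between specimens of a day. The 10 lines run together in study 2, with peaks at day 7, at specimen 2 of day 17 and at specimen 1 of day 49 and the lowest point at specimen 2 of day 105. In study 1 they peak together at code 12 of day 17.

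In study 1 the 45 pairs in whole granuloma had r from 0.606 to 0.993 over 8 specimens, with a median r of 0.849 and a median rho of 0.857. By the exact permutation test 39 of 45 were under 0.05 after adjustment for r and 30 for rho. Smtn and Des were the tightest pair (r = 0.993, rho = 0.976, adjusted exact p = 0.00128) and Myh11 and Smtn the loosest (r = 0.606, rho = 0.667, adjusted exact p = 0.113). The values depended on 1 specimen more than in study 2. Without code 12 of day 17 the median r was 0.639, and without the 2 farthest specimens of each pair it was 0.76. Myh11 correlated best with Tagln (r = 0.95) and its median r with the other members was 0.732. Actg2 and Cnn1 had median r of 0.94 and 0.934.

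In captured cells the relation was weaker, and in study 2 it depended on few specimens. In study 2 the median r was 0.669 over 15 specimens, with 27 of 45 pairs under 0.05 after adjustment for r and 10 for rho (permutation test). Without the 2 farthest specimens of each pair the median r was 0.247 and 16 of 45 pairs changed sign, among them Myh11 and Actg2 (r of -0.318, against 0.746 with all specimens), and without the 3 arrays that stand apart it was 0.144. Without only the 2 arrays least like the others, which leaves the high array of day 33 in, it was 0.676. That array was picked because its members were high, so leaving it out lowers r by that choice. Without all arrays of specimen 2 of day 33 the median r was 0.45, and without specimen 2 of day 49 it was 0.702. In study 1 the median r was 0.22 and the median rho 0.136, with 1 of 45 pairs under 0.05 after adjustment for r and 0 for rho (permutation test). That pair was Acta2 and Tagln (r = 0.8, rho = 0.718, adjusted permutation p = 0.0139 for r and 0.118 for rho). Many of these values lie near the floor of the array, where a correlation compares small differences. With the second probe sets of Myh11, Acta2 and Des in place of the first, the median r in whole granuloma of study 2 was 0.888, the lowest r 0.0393, and 27 of 45 pairs had an r of at least 0.8, where the first probe sets had 45 of 45.

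**Figure D4:**
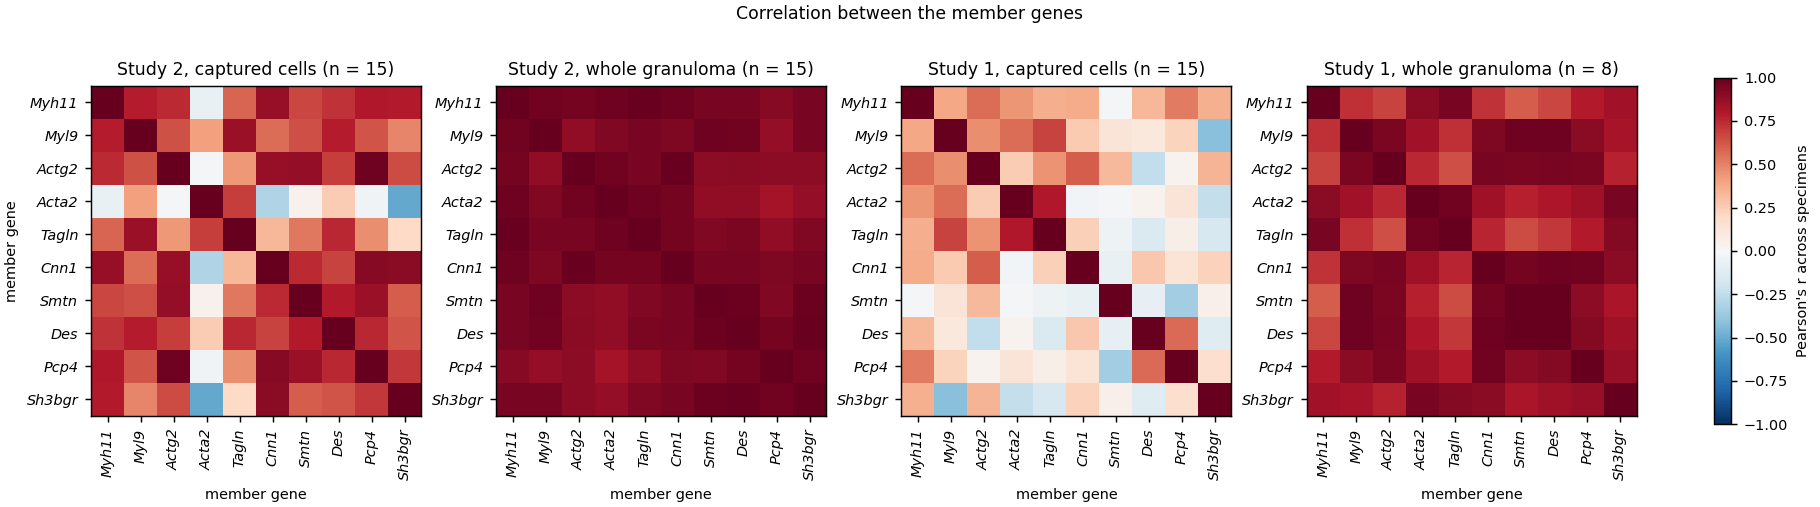
Pearson's r between the 10 members across specimens, for captured cells (left) and whole granuloma of study 2, then captured cells and whole granuloma of study 1. Colour runs from -1 (blue) to 1 (red). Whole granuloma of study 2 is red throughout (0.829 to 0.988), and captured cells of study 1 are pale and mixed (-0.417 to 0.8). In captured cells of study 2 the lowest r is that of Acta2 and Sh3bgr (-0.512). Without specimen 2 of day 49, which holds an array that stands apart, the lowest r of any pair there is 0.227.

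The genes most like Myh11 in whole granuloma were ranked over 8591 genes by the lower of the 2 correlations, 1 per study, as a description of these specimens. Apart from Tagln (rank 2) and Acta2 (rank 9) the first 10 were Pdlim3, Slc24a3, Tpm1, Ppp1r14a, Rgs5, Mrvi1, Tac1, Stmn3, Tnnt2 and Mylk. Pdlim3, a scaffold protein that binds alpha-actinin, had r = 0.957 over the 15 specimens of study 2 and 0.956 over the 8 of study 1. Slc24a3, a sodium and calcium exchanger, had 0.959 and 0.936. Mrvi1, a target of cyclic GMP-dependent kinase at the calcium store, had 0.924 and 0.911. Tac1, the precursor of the neuropeptide substance P, had 0.908 and 0.937, and Stmn3, a neuronal stathmin, had 0.896 and 0.922. Rgs5, which the pericyte list also holds, had 0.921 and 0.931.

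For comparison, the median r with Myh11 over the 8591 genes was 0.01 in study 2 and -0.04 in study 1. It was 0.958 and 0.732 for the other 9 members, and 0.894 and 0.665 for the 21 other contraction genes. Pericyte genes had a median of 0.632 and -0.08, mesothelial genes 0.782 and 0.244, and striated muscle genes 0.823 and -0.07. Adipocyte genes had 0.241 and -0.302, endothelial genes -0.03 and 0.02, and plasma cell genes -0.255 and -0.05. The titles of the whole granuloma arrays do not show which were processed or hybridized together, so these values describe likeness across specimens only.

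**Figure D5:**
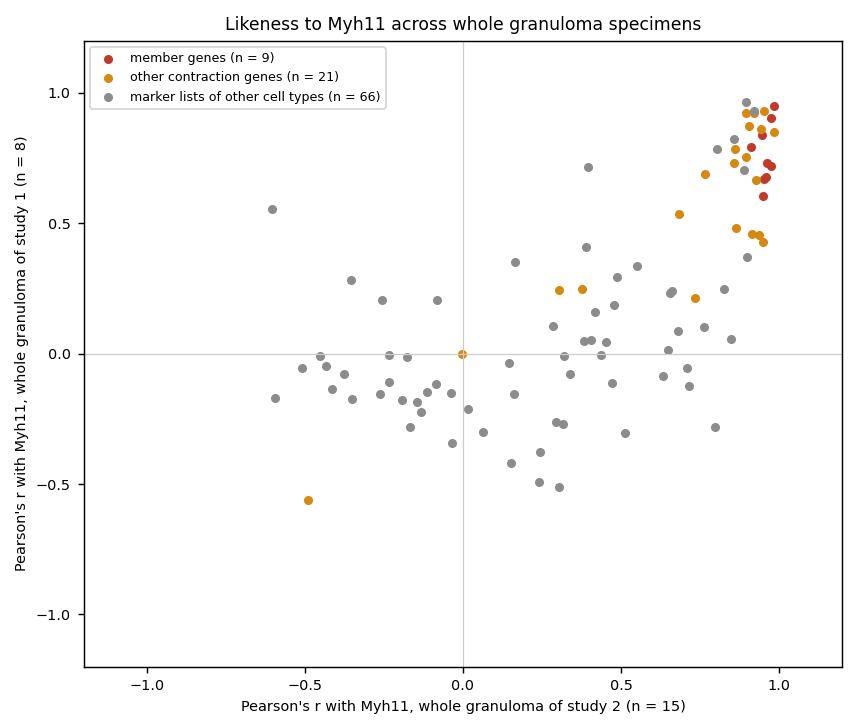
Pearson's r with Myh11 across whole granuloma specimens, study 2 on the horizontal axis (n = 15) and study 1 on the vertical axis (n = 8). Each point is a gene of the fixed lists. The 9 other members lie in the upper right, 9 of the 21 other contraction genes exceed 0.7 in both studies, and the marker genes spread widely.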

How the data were processed

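The deposited values are log2 values of 22690 probe sets on 82 arrays. The submitters' processing notes name Partek and RMA, with no version. Per the labels' protocols, RNA of both tissue types was amplified in repeated linear rounds before labelling. No column lacked a sample (0 such columns). Probe sets were named from the array's gene table, and 20393 had 1 symbol, 691 several and 1606 none.

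Arrays of a specimen code and tissue type were averaged, which gave 53 averages of 33 codes in 19 groups. All groups shared a fit in limma (version 3.58.1, lmFit with eBayes, under R version 4.3.3), which left 34 residual degrees of freedom. The specimen code entered as a random block, since 20 codes in the titles have both tissue types, with a correlation of 0.105 on quantile-normalized and 0.113 on deposited values. The Benjamini-Hochberg threshold was 0.05. The fit was tested on simulated data. Some titles add a letter to the code, and unclear codes were also run as other specimens.

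The members, the lists and the tests were chosen with earlier results of these data known. The genes named besides the members were, by rule, the other contraction genes past the threshold with the largest differences (up to 4 per direction), up to 2 per marker list, and the 10 genes most like Myh11. Alternatives were the deposited, quantile-normalized and median-centred scales, other blocks, filters and specimen definitions, the 3′ minus 5′ covariate, and each specimen left out. Precision is limited by the number of specimens. Scanner intensities were not used here.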

Additional observations from a re-analysis of the deposited data

Results flagged for a closer look

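The change at day 105 against day 7 in study 2 differed between captured cells and whole granuloma, by the test of that difference itself in limma, for 7 members. The captured minus whole differences were 4.46 for Myh11, 4.76 for Myl9, 4.47 for Cnn1, 3.33 for Smtn, 3.79 for Des, 4.02 for Pcp4 and 4.69 for Sh3bgr on the deposited log2 scale. Whole granuloma was lower at day 105, and no member passed the test in captured cells, where Cnn1, Myh11, Pcp4 and Sh3bgr lay at median percentiles of 12.65 to 24.13 of the array, near its floor. The other 3 of the 7 lay higher there, at median percentiles of 37.25 for Smtn, 46.97 for Myl9 and 61.84 for Des. Acta2, at the 90.3rd percentile, Tagln, at 57.69, and Actg2, at 31.07, are not among the 7. The part of the floor in this result was not tested. No specimen was far from the others in the 20 groups of 4 specimens that allow this check (captured cells of days 7 and 17 of study 1, for each of 10 members).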

How the results depend on the processing

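With the specimen code as the replicate block or without it, the captured minus whole calls were the same 10 in each study, and as a fixed block 10 in study 2 and 9 in study 1. The count for the day 105 change between tissue types was 3 without the block, and 0 to 9 with 1 specimen left out. The difference between the studies called 3 members on deposited and 1 on median-centred values, against 0. Days in whole granuloma of study 2 called 0 members when fitted alone and 6 to 10 with 1 specimen left out, and days in captured cells of study 2 called 0 to 1. The median correlation in captured cells of study 2 was 0.2469 without the 2 farthest specimens and 0.1437 without 3 arrays, an alternative chosen after seeing the data. It was 0.8879 in whole granuloma of study 2 with second probe sets, and 0.6386 to 0.9205 in study 1 with 1 specimen left out. Without the 3 arrays that stand apart, 1 member was called between day 105 and day 7 in captured cells, against 0. No alternative turned the sign of a member's captured minus whole difference of study 2 or of its day 105 difference in whole granuloma of study 2, except that the second probe sets of Acta2 and Des had the opposite sign in captured minus whole of study 2 and that of Des at day 105. Without the 2 farthest specimens 16 of 45 pairs in captured cells of study 2 and 14 of 45 of study 1 changed sign, and the median difference between the studies was -0.22 without days 104 and 105, against 0.53. The causes were not tested. The number of specimens limits the precision.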
